A study of Mus musculus with 7 samples.

Results

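Gfap and Slc1a3 are astrocyte genes with a probe among 382 CpG probes measured on 7 arrays of mouse DNA. Their probes, 1 per gene, were taken by the symbol that opens each probe name, so 2 of the 382 probes are described here in depth. Methylation was read as a beta value, the fraction of signal from the methylated state, which runs from 0 (unmethylated) to 1 (methylated). All DNA came from C57BL/6 mice and was bisulphite converted before hybridisation to a custom Illumina GoldenGate array.

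The arrays of the first kind hold brain DNA and are titled A2B5_mas and PSA-NCAM_mas, 1 array each. A2B5 is a surface ganglioside epitope found on glial progenitors. PSA-NCAM is the form of the neural cell adhesion molecule that bears polysialic acid and is carried by migrating neuroblasts. The labels give neither the isolation of these cells, the brain region, the number, age and sex of the animals, nor the meaning of "mas". The arrays of the other kind, Met_0, Met_25, Met_50, Met_75 and Met_100, carry DNA as their tissue label and are read here as control DNA of graded methylation, which the titles imply but do not state. With 1 array per title there is no replicate spread, so the brain values are descriptions. The exact permutation test over the Met arrays is the one test reported. The number of arrays limits the precision.

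Gfap encodes glial fibrillary acidic protein, an intermediate filament widely used as a marker of astrocytes. Slc1a3 encodes GLAST, the glutamate transporter of radial glia and astrocytes. In mouse neuroepithelium a CpG inside a STAT3 recognition element of the Gfap promoter is methylated, and loss of that methylation before glial stages lets STAT3 switch the gene on. Slc1a3 is already active in radial glia and in neural stem cells. A methylation level does not measure expression, so these values cannot tell which cells were in the samples, and the tissue label could not be checked by expressed markers.

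The windows below, from 250 bases before to 50 bases after the RefSeq start site (build GRCm38.p6), show how few CpGs lie near the start of either member. Hes5, a Notch target that holds progenitors undifferentiated, is shown as a CpG-rich contrast. Capitals mark each CG, and every line is written 5′ to 3′ on the gene's strand. Gfap lies at chr11:102897151-102897450 (minus strand), Slc1a3 at chr15:8710758-8711057 (minus strand) and Hes5 at chr4:154960673-154960972 (plus strand). The position of the CpG that each probe measures is not given in the sources used here, so it may lie outside these windows.
Gfap: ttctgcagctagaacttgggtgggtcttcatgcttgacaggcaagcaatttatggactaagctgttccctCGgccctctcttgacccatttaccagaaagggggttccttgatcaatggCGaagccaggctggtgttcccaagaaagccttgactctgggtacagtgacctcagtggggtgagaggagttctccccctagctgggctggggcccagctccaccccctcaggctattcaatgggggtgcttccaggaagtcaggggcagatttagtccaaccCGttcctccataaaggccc
Slc1a3: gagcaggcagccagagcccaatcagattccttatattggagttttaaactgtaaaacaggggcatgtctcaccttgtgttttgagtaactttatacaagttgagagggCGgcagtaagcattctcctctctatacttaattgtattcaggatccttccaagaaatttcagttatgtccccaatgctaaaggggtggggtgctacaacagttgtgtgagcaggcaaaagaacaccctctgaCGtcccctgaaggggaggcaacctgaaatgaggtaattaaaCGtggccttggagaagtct
Hes5: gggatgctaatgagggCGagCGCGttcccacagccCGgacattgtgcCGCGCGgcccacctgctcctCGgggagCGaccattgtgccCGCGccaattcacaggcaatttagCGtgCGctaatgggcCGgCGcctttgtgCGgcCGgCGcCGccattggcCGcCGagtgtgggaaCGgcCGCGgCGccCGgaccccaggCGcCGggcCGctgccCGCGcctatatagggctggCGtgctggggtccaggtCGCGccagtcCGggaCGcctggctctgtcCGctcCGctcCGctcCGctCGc

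Both members have CpG-poor promoters. Gfap has 3 CpGs in its window, at -180, -131 and 32 from the start site, and a GC content of 55.7%. Slc1a3 also has 3, at -142, -10 and 32, with a GC content of 45.3%, while Hes5 has 41 CpGs and 72.7%. Of 32851 RefSeq windows of this length, 31.4% hold 3 CpGs or fewer, and of the 230 probes on the array whose gene has a single window, 11.7% do. The pattern TTCNNNGAA, the general form of a STAT site, which reads the same on both strands, occurs once in each member, as TTCCAGGAA from position -2 in Gfap and as TTCCAAGAA from position -96 in Slc1a3. It occurs in 8.30% of all windows and in none of the Hes5 letters above. The CpG-containing form TTCCGAGAA, searched on both strands, occurs in 55 windows (0.167%) and not in those of Gfap or Slc1a3. The search covered these windows only, so the STAT3 element of Gfap described above may lie outside them. The Gfap match TTCCAGGAA holds no CpG and so is not that element. A match is a run of letters and not a site shown to bind.

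The first question was whether each probe follows the Met series, since its brain values can be read against the series only if it does. Gfap had beta values of 0.0838, 0.650, 0.740, 0.801 and 0.924 from Met_0 to Met_100, in order of the titles. Slc1a3 had 0.179, 0.579, 0.648, 0.700 and 0.785 over the same arrays. Both probes were higher at each step, and Gfap spanned the wider range. The slope over the full series was 0.732 ± 0.220 for Gfap and 0.533 ± 0.154 for Slc1a3 (SE of the straight line, n = 5 arrays). By exact permutation over all 120 array orders, the two-sided p was 0.0167 for each member, the smallest this design allows, and 0.0206 after Benjamini-Hochberg adjustment over all 382 probes. By the same test 335 of the 382 probes (87.7%) rose, so passing it is the usual behaviour on this array. Without Met_0 the slopes were 0.353 for Gfap and 0.268 for Slc1a3, and with any 1 Met array left out the adjusted p of the exact permutation test lay between 0.0532 and 0.203. Fewer orders remain without an array, which raises the smallest p the test can give, so some rise in p was fixed beforehand. The test takes each Met array as an independent sample, although the labels leave unsaid whether they are dilutions of a shared pair of DNAs.

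Neither curve was straight. At Met_25 Gfap had already covered 67.4% of its distance between Met_0 and Met_100, and Slc1a3 66.0%. The median over the 330 other responsive probes, those with Met_100 at least 0.3 above Met_0, was 59.7% for both comparisons. At Met_50 and Met_75 Gfap stood at 78.1% and 85.4% of its span and Slc1a3 at 77.4% and 85.8%. The members thus shared the shape of their curves and differed in where they began and ended. Written as a single odds preference for methylated over unmethylated template between the end arrays, the curve gave 4.96 for Gfap and 4.69 for Slc1a3, above 228 and 219 of the 330 others. Of the 382 probes, 331 (86.6%) were responsive, both members among them.

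In the brain arrays the members stood far apart. Gfap had 0.640 in A2B5_mas and 0.549 in PSA-NCAM_mas, against 0.0838 in Met_0, and was thus 0.557 and 0.465 higher than Met_0. Only 35 of the 381 other probes were higher than Gfap in A2B5_mas, and 40 in PSA-NCAM_mas, although 277 were higher in Met_0. Of 331 responsive probes, A2B5_mas exceeded Met_0 by 0.2 or more at 19.0% and PSA-NCAM_mas did so at 16.9%. Gfap was in both sets and Slc1a3 in neither.

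Slc1a3 had 0.234 in A2B5_mas and 0.237 in PSA-NCAM_mas, against 0.179 in Met_0. These are 0.0546 and 0.0574 above Met_0. The array error was gauged over responsive probes by how far Met_50 lay from the average of Met_25 and Met_75. This gave an SD of 0.0231 per array and 0.0326 for a difference of 2 arrays, which also holds any real bend of a curve. The Slc1a3 differences from Met_0 are 1.67 and 1.76 times that SD. It was measured at higher beta values than those of Slc1a3, and its fit at low levels was not tested. Both brain values of Slc1a3 were nonetheless above the medians of all probes, 0.101 in A2B5_mas and 0.0970 in PSA-NCAM_mas.

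**Figure D1:**
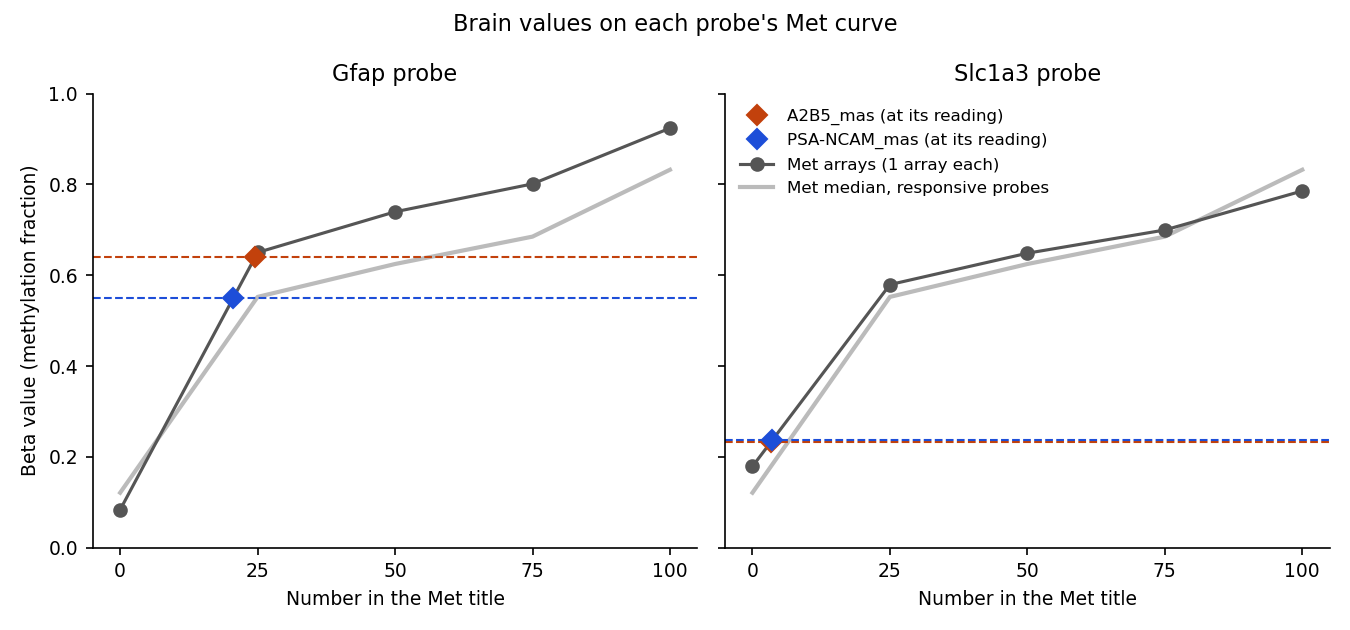
Beta value (vertical axis) of the Gfap probe (left) and the Slc1a3 probe (right) against the number in the Met title, with 1 array per point and the median of responsive probes in light grey. Dashed lines and diamonds place the brain arrays on each curve: Gfap in A2B5_mas lies almost at Met_25 and in PSA-NCAM_mas below it, while both Slc1a3 values lie close to Met_0.

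Read off its own Met curve, with straight lines between the arrays, Gfap corresponded to a Met number of 24.6 in A2B5_mas and 20.5 in PSA-NCAM_mas. Moving each brain value down and up by 1 SD of an array gave readings from 23.6 to 28.8 in A2B5_mas and from 19.5 to 21.5 in PSA-NCAM_mas. Slc1a3 stood at 3.41 in A2B5_mas (1.97 to 4.85) and at 3.58 in PSA-NCAM_mas (2.14 to 5.03). These ranges leave out the error of the Met arrays themselves. The beta value of Gfap therefore corresponds to a much smaller Met number than its size would imply on a straight scale. All the readings lie on the steep first step of the curves, between Met_0 and Met_25, so they depend on those arrays. Without Met_25 the Gfap readings were 42.4 in A2B5_mas and 35.5 in PSA-NCAM_mas, and those of Slc1a3 were 5.82 and 6.11. Without Met_0 no curve remains below Met_25, and all 4 readings are known only to lie under 25.

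Among responsive probes both members read above most others on this scale, Slc1a3 at readings close to 0. In A2B5_mas 280 of the 330 others read lower than Gfap and in PSA-NCAM_mas 282 did. For Slc1a3 the counts were 239 and 241. The median reading of the others was 0 in either brain array, because most of their brain values were at or below their own Met_0 value. Set beside probes of similar level, those whose mean of both brain arrays lay within 0.1 of its own, Gfap read low instead. Those 26 probes had a median reading of 62.4 in A2B5_mas and 38.5 in PSA-NCAM_mas, and 7 of them read lower than Gfap in each array. Their median share of the span covered at Met_25 was 48.8%, against 67.4% for Gfap, and their median beta value in Met_0 was 0.194, against 0.0838. Equal beta values on this array thus correspond to different Met numbers from probe to probe. Slc1a3 read a little above the middle of its 55 probes of similar level. Their median reading was 1.46 in A2B5_mas and 0 in PSA-NCAM_mas, and 33 and 34 of them read lower than Slc1a3.

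The brain arrays were then set against each other, which asks how DNA named for a marker of glial progenitors differs from DNA named for one of neuroblasts. Gfap was 0.0917 higher in A2B5_mas than in PSA-NCAM_mas, which is 2.81 times the SD of a difference of 2 arrays. That SD comes from the Met arrays and holds neither a spread between brain samples nor a shift of a whole brain array. The multiple is therefore no measure of how sure the difference is. For Slc1a3 the same difference was -0.00278, within that SD. The gap between Gfap and Slc1a3 was 0.407 in A2B5_mas and 0.312 in PSA-NCAM_mas, so the members differed in this contrast by 0.0944, which could not be tested with 1 array each. Among responsive probes 38 of 331 (11.5%) were at least 0.05 higher in A2B5_mas, Gfap among them, and 3 (0.906%) at least 0.05 lower. Of the 330 others, 8 exceeded the Gfap difference. Quantile normalization of the brain arrays alone left Gfap 0.0398 higher, and of all 7 arrays 0.0156 higher, both short of 0.05.

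The size of this difference moves with level, so Gfap was compared with the 26 probes of similar level. Of these, 24 were higher in A2B5_mas and 15 by at least 0.05. Their median difference was 0.0582, with an SD over probes of 0.0332. Gfap exceeded that median by 0.0335, about 1 SD over probes, and 23 of the 26 had a smaller difference. Most of the Gfap difference is therefore also seen at the median probe of its level. Next below Gfap was Edg8 (current symbol S1pr5, an oligodendrocyte receptor for a sphingolipid), with 0.686 in A2B5_mas and 0.600 in PSA-NCAM_mas. The largest differences in the set were those of Gje1, a connexin symbol that has named more than one gene, at 0.114, and P2ry4 (a pyrimidine nucleotide receptor) at 0.0926. The smallest were those of Fshr (the follicle-stimulating hormone receptor) at -0.0276 and Tectb (beta-tectorin of the inner ear) at -0.00554.

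On the scale of readings Gfap differed by 4.05 between A2B5_mas and PSA-NCAM_mas. The median of the 26 probes was 6.11, and 10 of the 26 had a smaller difference of readings, so on this scale Gfap lay in the middle of its set. Probes with a Met curve like that of Gfap, within a root mean square of 0.05 over the Met arrays, gave another comparison. There were 42, and all 42 had a smaller beta difference than Gfap. Of these, 31 were under 0.2 in both brain arrays, and their median brain level was 0.0802, against 0.595 for Gfap. This set is thus matched on response and not on level.

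Slc1a3 had 55 probes of similar level. Their median difference was 0.0157 with an SD over probes of 0.0252, and 42 of the 55 were higher in A2B5_mas. Slc1a3 lay 0.0185 below that median, less than 1 SD over probes, and 11 of the 55 had a lower difference. The probe next below was Glra3 (a glycine receptor subunit) at -0.00499, and next above was Tacr3 (the neurokinin B receptor) at -0.00110. The ends of this set were F2r (the thrombin receptor) at 0.0668 and Nmur2 (a neuromedin U receptor) at 0.0629, and Gal3st1 (the sulfatide-forming enzyme) at -0.0503 and Mme (neprilysin) at -0.0482. Of the 55, 3 had a smaller absolute difference than Slc1a3.

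**Figure D2:**
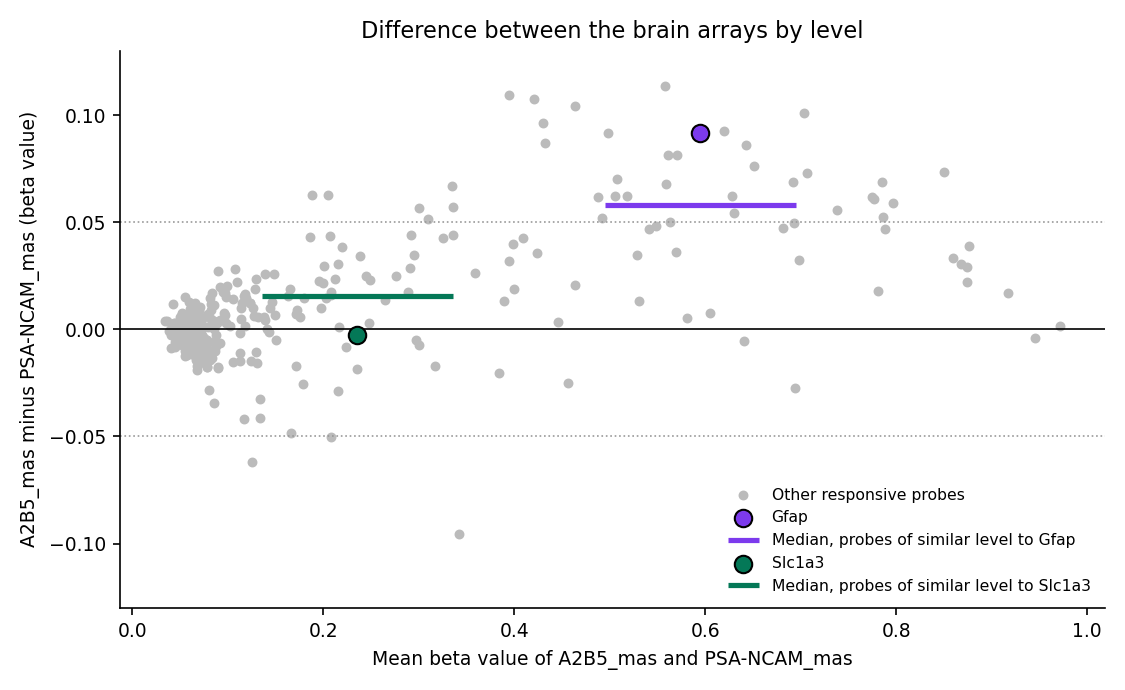
Difference A2B5_mas minus PSA-NCAM_mas in beta value (vertical axis) against the mean of both arrays (horizontal axis) for the 331 responsive probes, with dotted lines at 0.05 and -0.05. Gfap lies at 0.0917 above the median of 0.0582 of its 26 probes of similar level (bar), and Slc1a3 at -0.00278 below the median of 0.0157 of its 55.

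Over all 7 arrays, the probe most like Gfap was Chrm2 (the muscarinic receptor M2), with a root mean square difference in beta value of 0.0477. It had 0.537 in A2B5_mas and 0.524 in PSA-NCAM_mas, against 0.0464 in Met_0. Ctsg (the neutrophil protease cathepsin G) came next at 0.0594, then Htr1d (a serotonin receptor) at 0.0611, Sgce (epsilon-sarcoglycan, which is imprinted) at 0.0712 and Fshb (the beta subunit of follicle-stimulating hormone) at 0.0914. All 5 were higher in A2B5_mas, by 0.00527 (Sgce) to 0.0558 (Fshb), and all by less than Gfap. Of all 382 probes, 65.2% were higher in A2B5_mas. Closest to Slc1a3 were P2ry5 (now Lpar6, a lysophosphatidic acid receptor) at 0.0386, P2ry10 at 0.0445, Clic5 (a chloride intracellular channel protein) at 0.0475, Sstr1 (a somatostatin receptor) at 0.0502 and Trhr (the thyrotropin-releasing hormone receptor) at 0.0516. Of these 5 only Clic5 was lower in A2B5_mas, as Slc1a3 was, with 0.226 in A2B5_mas and 0.244 in PSA-NCAM_mas. Both sets of 5 were chosen over all 7 arrays, brain arrays included, so their brain values are partly set by that choice.

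The other genes of astrocyte biology came from lists that the array covers thinly. Of 33 astrocyte symbols, Gfap and Slc1a3 alone had a probe, and of 16 intermediate filament symbols Gfap alone. The astrocyte list is not complete, and other genes that astrocytes express, such as Ntsr2 and Ednrb, have a probe but lie outside it. Ntsr2 had 0.0532 in A2B5_mas and 0.0537 in PSA-NCAM_mas, against 0.609 in Met_0, and Ednrb is given below. Among 19 symbols of glutamate transport and metabolism, Slc1a3 was joined by Got1 (an aspartate aminotransferase that forms glutamate). Got1 had 0.0501 in A2B5_mas and 0.0510 in PSA-NCAM_mas, against 0.0609 in Met_0. It was thus low in all 3 arrays, unlike Slc1a3.

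Genes that act upstream of Gfap in the switch to astrocytes were better covered, by 9 probes of 53 symbols. All 9 were Notch receptors, their Hes targets or Id genes, which encode inhibitors of neuronal transcription factors. Under 0.2 in both brain arrays were 8 of the 9 (88.9%), against 68.3% of all responsive probes. Hes1 was lowest, with 0.0361 in A2B5_mas and 0.0324 in PSA-NCAM_mas, against 0.0357 in Met_0. Hes5, whose CpG-rich promoter is shown above, had 0.0700 and 0.0776 in these brain arrays, against 0.142 in Met_0. The exception among the 9 was Notch3, with 0.545 in A2B5_mas and 0.511 in PSA-NCAM_mas, against 0.282 in Met_0. On its own Met curve Notch3 read 82.2 in A2B5_mas and 76.4 in PSA-NCAM_mas, far above the readings of Gfap. Hes3, a Hes gene that the list leaves out, also stood high. It had 0.611 in A2B5_mas and 0.530 in PSA-NCAM_mas, against 0.334 in Met_0, and read 23.5 and 16.6 on its Met curve.

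Between the brain arrays 7 of the 9 probes (77.8%) were higher in A2B5_mas, against 65.2% of all 382 probes, and 2 were lower, with 0 past 0.05 in either direction. Their median difference was 0.00445, close to the 0.00429 of all 382 probes. Among the 9 the largest difference was at Notch3 (0.0345) and the lowest at Hes5 (-0.00754). Hes3, outside the list, was 0.0813 higher in A2B5_mas than in PSA-NCAM_mas, so the count past 0.05 holds for the listed probes only. Met_0 was above both brain arrays at 6 of the 9, and at 185 of the 331 responsive probes. The widest such gap was at Id4, with 0.0533 in A2B5_mas and 0.0488 in PSA-NCAM_mas, against 0.343 in Met_0. Gfap and Slc1a3 ran the other way, with both brain arrays above Met_0.

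Markers of other cell types that the samples could hold were few. Of the oligodendrocyte lineage 6 of 14 symbols had a probe, with 4 higher in A2B5_mas (66.7%, against 65.2% of all 382 probes) and 2 lower. Their median difference was 0.0140, and 0.0320 over the 4 that were responsive. Among those past 0.05 was Gm98 (a transcription factor of myelin genes whose current symbol is Myrf), with 0.236 in A2B5_mas and 0.173 in PSA-NCAM_mas. At the low end were Mbp (myelin basic protein) at -0.00980 and Cnp (a myelin enzyme) at -0.0104. Cnp and Mag (myelin-associated glycoprotein) were not responsive, with Met_100 minus Met_0 at 0.0892 and -0.00999, so their brain values cannot be read against the Met series. Olig2, the lineage factor, had 0.0750 in A2B5_mas and 0.0735 in PSA-NCAM_mas, against 0.431 in Met_0. Both neuronal probes were low: Ncam1 at 0.0741 in A2B5_mas and 0.0791 in PSA-NCAM_mas, Camk2a at 0.0642 in A2B5_mas and 0.0742 in PSA-NCAM_mas. Ifng, the one probe from the list of microglia and blood markers, had 0.609 in A2B5_mas and 0.601 in PSA-NCAM_mas. Ednrb, listed for endothelium but also expressed by astrocytes, stood at 0.120 in A2B5_mas and 0.108 in PSA-NCAM_mas. Ednrb therefore does not tell these cell types apart. Whether the mix of cells has a part in the Gfap difference was not tested.

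**Figure D3:**
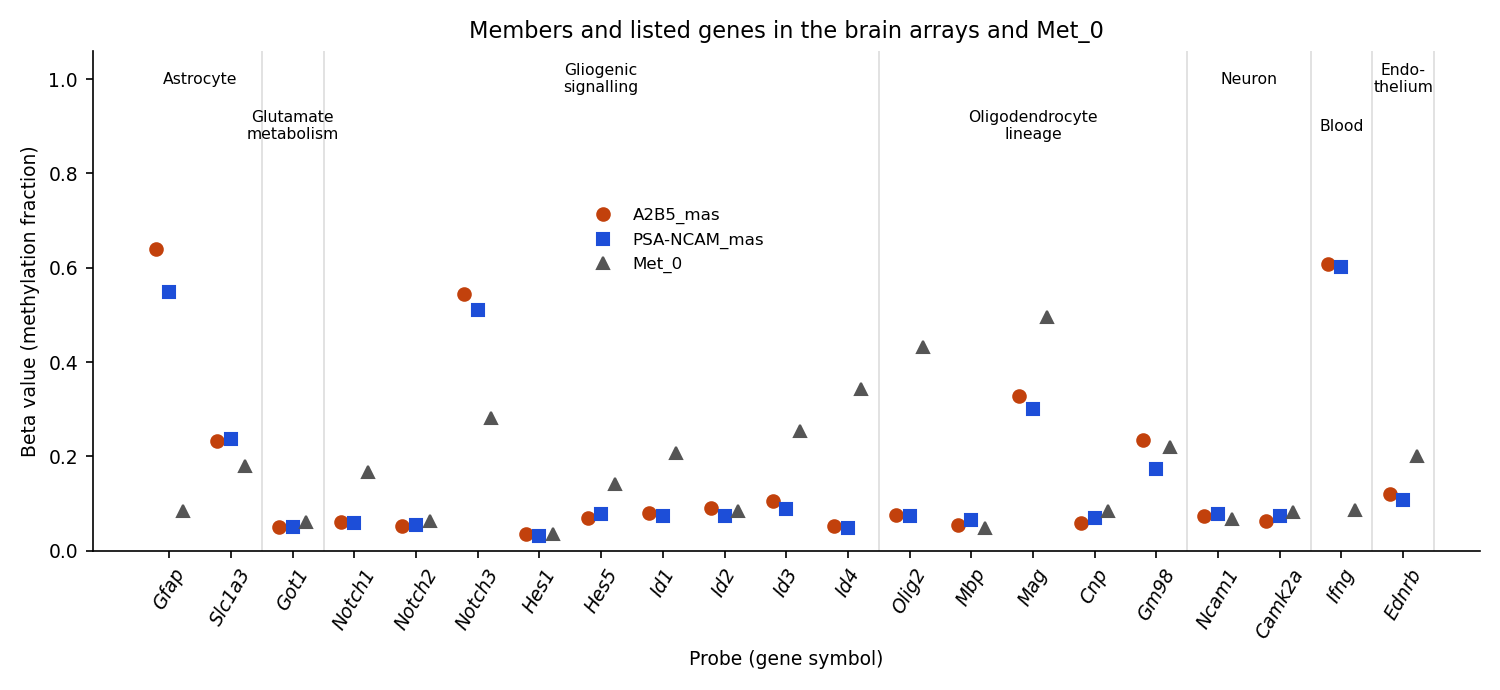
Beta values (vertical axis) of Gfap, Slc1a3 and listed genes in A2B5_mas (circles), PSA-NCAM_mas (squares) and Met_0 (triangles), 1 array each. Gfap, Notch3 and Ifng stand high in both brain arrays, and most gliogenic signalling genes lie under 0.2.

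The members' brain levels were last set against the CpG count of their promoters. The comparison covers the 205 responsive probes whose gene has a single RefSeq window. Over these, Spearman's rho between CpG count and mean brain level was -0.390 and Pearson's r -0.387, given as descriptions since all points share the same arrays. For Met_0 rho was 0.0311. The 21 probes with 3 CpGs or fewer, which include both members, had a median brain level of 0.399, and the 88 with at least 20 CpGs had 0.0678. Of those 21, 15 lay below Gfap and 4 below Slc1a3. Of the 88, 87 lay below Gfap and 75 below Slc1a3. Gfap was thus among the higher and Slc1a3 among the lower probes of CpG-poor genes, while either was above most probes of CpG-rich genes.

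**Figure D4:**
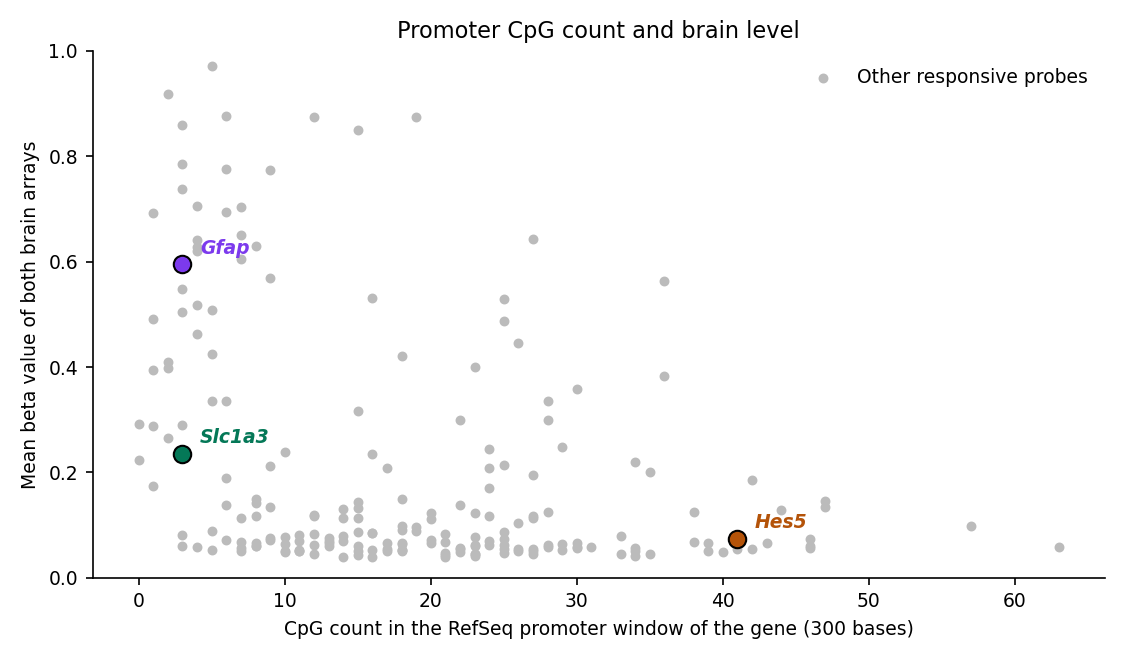
Mean beta value of A2B5_mas and PSA-NCAM_mas (vertical axis) against the number of CpGs in the gene's promoter window (horizontal axis) for 205 responsive probes. Gfap and Slc1a3, with 3 CpGs each, lie at 0.595 and 0.235, and Hes5, with 41, lies at 0.0738.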

How the data were processed

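The table that the authors deposited gives 1 value per probe and array (382 by 7), read as the methylated fraction (beta value) since all lay between 0.0282 and 0.972, with 0 missing. Software, background correction, normalization and probe positions were not given in the sources used here. Such steps could shift values between arrays. Samples were grouped by title. Both members and the 8 lists were chosen with earlier results of these data known, as were the size rules of 0.05 between brain arrays and 0.2 against Met_0. Genes were named by rule: the members, their 5 closest probes over all arrays, list members, and the extremes and nearest neighbours of the difference among probes of similar level; 1 gene that the rule names is not reported here, nor drawn among the listed genes, though counts and medians include it; S1pr5, Lpar6 and Myrf are current names of older symbols. Hes3 and Ntsr2 were named outside this rule, as related genes that the lists leave out. The slope of every probe over the Met arrays was tested by an exact permutation of the arrays with Benjamini-Hochberg adjustment. Brain values were placed on each Met curve after isotonic regression. The code was tested on simulated data. Promoters came from RefSeq (GRCm38.p6) and matched both members. The symbols of 362 probes were current, and those of 20 were older names with 1 match. Analyses used Python 3.11.15, numpy 2.4.6, pandas 2.3.3, scipy 1.17.1 and scikit-learn 1.9.0. Alternatives covered scale, normalization, curve, window and size, and leaving out each Met array.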

Additional observations from a re-analysis of the deposited data

How the results depend on the processing

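With 1 array per title, precision rests on the number of arrays, and brain differences have no replicate check. No paired analysis was possible because each title has 1 array. Of 108 alternative values of 19 results, 48 were judged the same, by the test for slopes and by closeness for the rest. A difference given in readings or log2 units was counted as moved, although its units differ from those of the beta value. The count is therefore a rough guide. Quantile normalization of the 7 arrays, which forces the Met arrays to 1 distribution and so removes their gradient by construction, gave slopes of 0.328 for Gfap (exact permutation, adjusted p = 0.0979) and -0.0585 for Slc1a3 (adjusted p = 0.233). It gave readings of 100 for Gfap in A2B5_mas, 87.2 for Gfap in PSA-NCAM_mas and 100 for Slc1a3 in each. Under it Gfap was 0.356 (A2B5_mas) and 0.340 (PSA-NCAM_mas) above Met_0, its brain difference was 0.0156 and the astrocyte median 0.00431. With 1 Met array left out, slopes ran from 0.353 to 0.896 for Gfap and from 0.268 to 0.652 for Slc1a3. The adjusted p of the exact permutation test ran from 0.0532 to 0.203 and was highest for each member without Met_75. Leaving out an array also leaves fewer orders, which raises the smallest p the test can give. The Gfap readings then ran from 24.6 to 42.4 in A2B5_mas and from 20.5 to 35.5 in PSA-NCAM_mas, and those of Slc1a3 from 3.41 to 5.82 and from 3.58 to 6.11, apart from the case without Met_0, which gives only an upper bound of 25. A straight line gave readings of 50.1 and 37.6 for Gfap and 0 for Slc1a3 in both. Gfap was 0.0335 higher in A2B5_mas with the median of similar probes subtracted and 0.0398 after quantile normalization of the brain arrays alone, both under the 0.05 size rule. It was 4.05 higher in readings and 0.55 on the log2(beta / (1 - beta)) scale, where Slc1a3 gave -0.174 and -0.022. Against Met_25 in place of Met_0, a higher array by design, Gfap turned to -0.00964 in A2B5_mas and -0.101 in PSA-NCAM_mas, and Slc1a3 to -0.346 and -0.343. Against Met_0 on the log2 scale Gfap gave 4.28 and 3.73 and Slc1a3 0.48 and 0.51. The Gfap percentile of 88.5 among similar probes became 98.6 by Met_50 level, 38.5 in readings and 100 among probes of similar Met curve. The 38 higher probes became 81, 5 and 0 at sizes of 0.02, 0.1 and 0.2, 3 and 6 after quantile normalization of all or of the brain arrays, and 7 with similar probes subtracted. The 3 lower became 14, 0 and 0, then 5 and 10, and 9. The astrocyte list without its members held no probe. The similar Met curve, brain-only quantile and subtracted counts were chosen after seeing the data. Causes of these changes were not tested further.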
